A study of Capra hircus with 9 samples.

Results

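The comparison described here sets 2 kinds of goat mammary gland that were not being milked against each other. The members are the 3 non-lactation and the 3 dry-off samples, 6 of the 9 samples of the series, taken by the stage in their labels. All came from mammary gland of Xinong Saanen goats, a Chinese dairy breed. The dry-off samples were taken at day 310 after kidding, and the non-lactation samples came from animals labelled as neither lactating nor pregnant, for which no day is given. The remaining 3 samples, from lactation at day 100, are quoted only beside the comparison. No treatment or genetic change is named for any group. The labels do not say whether a stage's samples are from separate animals, and they give no parity, time since the last milking or season for the non-lactation group.

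Milk is made by luminal epithelial cells, which take up fatty acids, glucose and amino acids from blood and secrete fat droplets wrapped in plasma membrane together with casein, whey protein and lactose. When milking stops, secretion is shut down, part of the epithelium is lost, and macrophages and lymphocytes enter the tissue while it is remodelled. A gland between lactations therefore holds a mixture of epithelium, stroma, vessels and immune cells, and its RNA carries the share of each. In bulk tissue, fewer cells of a type and less RNA per cell cannot be told apart.

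For each stage the authors gave a mean in RPKM, a read count scaled to the length of the transcript and the size of the library, and each mean stands for 3 samples. Values per sample and total counts were not analysed here, so depth, the spread within a stage and any overlap of samples between stages are unknown. The table held 9131 transcripts of 6477 assembled components, a component being a set of assembled transcripts that share sequence. Of these transcripts, 93.8% had an unadjusted p under 0.05 for at least 1 of the 3 pairs of stages in the authors' deposited table, so the table is a selected part of the 51299 transcripts listed. Differences are given as log2((non-lactation mean + 1)/(dry-off mean + 1)), a scale that understates differences of low transcripts, and a negative value means a lower mean in non-lactation.

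No transcript reached an FDR below 0.05 for this pair of stages in the authors' deposited table (0 of 9131, 0%), and the smallest FDR was 0.0534. Counting unadjusted p-values below 0.05 in the authors' deposited table gave 3702 transcripts, 40.5% of the table. A Benjamini-Hochberg adjustment of the same p-values over the 9131 transcripts gave 1 transcript below 0.05. Because the table is a selected part of the transcripts listed, that adjustment does not control the FDR and is no call. The differences in the following paragraphs are therefore differences between authors' means, none of which passed the FDR, and the unadjusted p stands beside them as a description.

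Most transcripts had a lower mean in the non-lactation gland. The mean was higher in non-lactation for 748 transcripts (8.19%) and lower for 8383 (91.8%). The median log2 ratio was -0.55, with quartiles of -0.80 and -0.30, and single values ran from -3.12 to 5.25. With an unadjusted p below 0.05 in the authors' deposited table, 186 transcripts (2.04%) were higher in non-lactation and 3516 (38.5%) were lower. Means at least 2-fold higher in non-lactation were found for 138 transcripts (1.51%) and means at least 2-fold lower for 1170 (12.8%). The table is a selected part of the transcripts listed, and the part of that selection in this shift was not tested. Transcripts of general function in the table were mostly lower as well. Of 44 transcripts of cytosolic ribosomal proteins, 2 had a higher mean in non-lactation, and their median log2 ratio was -0.60.

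The split between higher and lower depended on the scale. Counted around the table median in place of 0, the 3702 transcripts with an unadjusted p below 0.05 in the authors' deposited table split into 1047 above, 2654 below and 1 at the median. Counted around the ribosomal protein median, 1251 lay above and 2451 below. The listed transcripts summed to 258686 RPKM in dry-off against 198563 RPKM in non-lactation, and these sums cover part of a library and are no measure of depth. Transcripts of alpha-lactalbumin and GLYCAM1 made up 0.523% of the sum in dry-off and 21.5% in non-lactation. Without them, the sums were 257333 RPKM and 155950 RPKM. RPKM is a share of each library, so an abundant transcript that is higher lowers the values of all others. The part of this in the shift of the table was not tested. Each group is therefore set beside the table median of -0.55. This holds for families of components too, although the median over 1 transcript per component was -0.62.

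**Figure D1:**
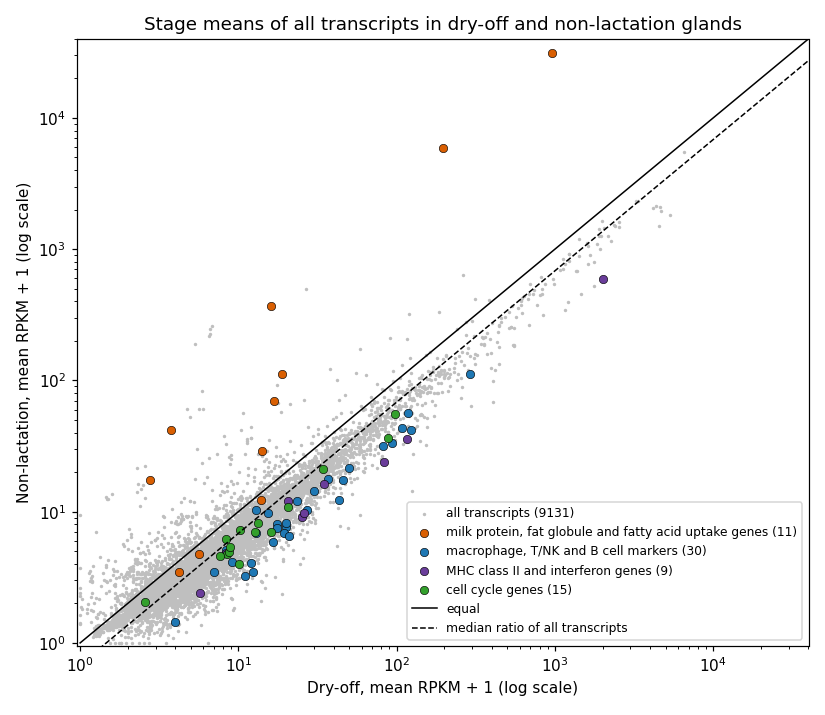
Each point is 1 transcript, with the dry-off mean RPKM plus 1 on the x axis and the non-lactation mean RPKM plus 1 on the y axis, both log scales. Most of the 9131 transcripts lie under the solid line of equal means, around the dashed line of the median ratio, while most of the milk protein, fat globule and fatty acid uptake genes lie far above it and most macrophage, T and NK cell and B cell markers lie below it.

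Of the gene lists, milk protein had the highest median log2 ratio, 4.95. LALBA, alpha-lactalbumin, the whey protein that lets a galactosyltransferase make lactose, had a mean of 960.4 RPKM in dry-off against 30948 RPKM in non-lactation. In lactation its mean was 60951 RPKM, so the non-lactation mean lay far above the dry-off mean and below the lactation mean. The 32.2-fold gap between the non-milking stages had an unadjusted p of 0.0754 and an FDR of 0.250 in the authors' deposited table. GLYCAM1, a mucin-like milk glycoprotein, had 197 RPKM in dry-off, 5857 RPKM in non-lactation and 11225 RPKM in lactation, with an unadjusted p of 0.0381 in the authors' deposited table. A second assembled GLYCAM1 component had almost the same means, 197 RPKM and 5809 RPKM, and reads of the pair cannot be told apart. Only these 2 of the 11 milk protein genes listed had a transcript with a matching description in the table.

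Genes of lactose synthesis were split. B4GALT1, the galactosyltransferase that partners alpha-lactalbumin, had 54.5 RPKM in dry-off, 113 RPKM in non-lactation and 61.1 RPKM in lactation. Its non-lactation mean was the highest of the 3 stages, with an unadjusted p of 0.0573 for the non-milking pair in the authors' deposited table. UGP2, which makes UDP-glucose, had 21.3 RPKM in dry-off against 27.4 RPKM in non-lactation, with an unadjusted p of 0.0134 in the authors' deposited table. The 3 facilitated glucose transporters on the list had lower means in non-lactation. SLC2A3 had 15.5 RPKM in dry-off against 8.89 RPKM in non-lactation, with an unadjusted p of 0.0395 in the authors' deposited table, and SLC2A4 had 3.45 and 2.43 RPKM. SLC2A8 had 7.09 RPKM and 6.55 RPKM. Outside the list, 2 transcripts described as member 9 of the same family were listed at 0 in dry-off, with 1.28 and 2.71 RPKM in non-lactation. Over the 7 measured genes of the list, 4 were higher and 3 lower in non-lactation and the median log2 ratio was 0.35. With transcripts of the hexokinase and phosphoglucomutase families added, the median was -0.46.

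All 4 measured genes of milk fat globule formation had a higher mean in non-lactation than in dry-off, with a median log2 ratio of 2.30. CD36, a fatty acid receptor found on the globule membrane, had 15.9 RPKM in dry-off against 68.4 RPKM in non-lactation and carried the smallest unadjusted p of this list, 0.000558, with an FDR of 0.154, in the authors' deposited table. XDH, xanthine dehydrogenase, which also builds the globule coat, had 17.8 RPKM in dry-off against 110 RPKM in non-lactation, above its lactation mean of 77.7 RPKM. MUC1, a membrane mucin of the globule, had 2.76 RPKM in dry-off against 40.7 RPKM in non-lactation. RAB18, a small GTPase of lipid droplets, had 13.1 RPKM and 27.9 RPKM. The unadjusted p-values in the authors' deposited table were 0.0432 for XDH, 0.0534 for MUC1 and 0.0368 for RAB18. The abundant butyrophilin transcript, whose description stands for a family that includes the main globule membrane protein, had 5.86 RPKM in dry-off, 260.0 RPKM in non-lactation and 288 RPKM in lactation. Its log2 ratio of 5.25 was the highest in the table, and a second butyrophilin transcript had 1.99 RPKM in dry-off against 0.619 RPKM in non-lactation.

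Fatty acid uptake genes divided by kind. The 3 with a higher non-lactation mean were CD36, LPL and FABP3. LPL, lipoprotein lipase, which frees fatty acids from blood triglyceride, had 1.76 RPKM in dry-off against 16.5 RPKM in non-lactation, with 39.1 RPKM in lactation and an unadjusted p of 0.0382 for the non-milking pair in the authors' deposited table. FABP3, an intracellular fatty acid carrier, had 15.0 RPKM in dry-off against 367 RPKM in non-lactation, and its unadjusted p was 0.0792 in the authors' deposited table. The fatty acid transporters SLC27A1, SLC27A3 and SLC27A4 had log2 ratios of -0.18, -0.23 and -0.28, which lie above the table median. The long-chain acyl-CoA synthetase family, which primes fatty acids for use, had 5 components in the table, of which 4 were lower and 1 higher in non-lactation. Its most abundant member had 17.2 RPKM in dry-off against 25.6 RPKM in non-lactation, the only one higher in non-lactation, while the next had 29.4 RPKM in dry-off against 7.56 RPKM in non-lactation, the latter with an unadjusted p of 0.00502 in the authors' deposited table. The 6 single genes had a median log2 ratio of 0.93, and with the transcripts of this family and of acetyl-CoA synthetase the median was -0.18.

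Triacylglycerol synthesis starts with acyltransferases that load glycerol-3-phosphate. A glycerol-3-phosphate O-acyltransferase 1/2 component had 5.01 RPKM in dry-off, 59.2 RPKM in non-lactation and 28.9 RPKM in lactation, and a second component had 3.92 RPKM, 51.8 RPKM and 23.3 RPKM. The unadjusted p-values for the non-milking pair were 0.0377 and 0.0325 in the authors' deposited table. Both components had their highest mean in the gland that was neither milking nor pregnant. Of the 3 components of 1-acyl-sn-glycerol-3-phosphate acyltransferase, the next enzyme, 2 were higher in non-lactation, at 24.1 against 14.001 RPKM and 10.8 against 4.27 RPKM. The remaining component had 15.5 RPKM in non-lactation and 19.5 RPKM in dry-off. All 3 phosphatidate phosphatase components, the step after that, were lower, the most abundant at 54.2 RPKM in non-lactation and 78.9 RPKM in dry-off. DGAT1, which adds the last fatty acid, had 1.72 RPKM in dry-off against 1.52 RPKM in non-lactation.

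The desaturase and the enzymes of fatty acid chain building did not share a direction. The main stearoyl-CoA desaturase transcript, which makes oleic acid, had 25.9 RPKM in dry-off, 498 RPKM in non-lactation and 179 RPKM in lactation, with an unadjusted p of 0.120 in the authors' deposited table. The transcript of acetyl-CoA carboxylase, which makes malonyl-CoA, had 3.95 RPKM in dry-off against 11.1 RPKM in non-lactation. The 8 single genes of synthesis, elongation and desaturation, by contrast, had a median log2 ratio of -0.68, and only FADS2, the delta-6 desaturase, was higher in non-lactation, at 2.19 against 1.56 RPKM. ACLY, ATP citrate lyase, which makes cytosolic acetyl-CoA, had 7.05 RPKM in dry-off against 3.45 RPKM in non-lactation, with an unadjusted p of 0.00239 in the authors' deposited table. The elongases ELOVL5, ELOVL6 and ELOVL7 had log2 ratios of -0.91, -0.70 and -0.62. MCAT and OXSM, which build fatty acids in mitochondria, had log2 ratios of -0.70 and -0.41, and FADS3 had -0.65. Of the 8 single genes, 6 lay below the table median, and OXSM and FADS2 lay above it.

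The single genes of cholesterol synthesis were mostly higher or equal in non-lactation, with 4 of 5 above 0, beside 8.19% of all transcripts. Their median log2 ratio was 0.32. DHCR7, a late enzyme of the pathway, had 10.5 RPKM in dry-off against 20.4 RPKM in non-lactation. SQLE and MVK, which act earlier, had log2 ratios of 0.32 and 0.19, and NSDHL had -0.08. Outside the single genes, the hydroxymethylglutaryl-CoA synthase component had 11.98 RPKM in dry-off against 9.20 RPKM in non-lactation, a log2 ratio of -0.35. The isopentenyl-diphosphate delta-isomerase component had a log2 ratio of 0.19. Of the lipid regulators, SREBF1, a transcription factor of lipogenic genes, had 3.94 RPKM in dry-off against 7.38 RPKM in non-lactation, while its relative SREBF2, which acts on sterol genes, had 44.5 RPKM and 32.7 RPKM. NCOA1, a nuclear receptor coactivator, had 4.72 and 2.57 RPKM, and MBTPS1, a protease that cleaves SREBPs, had 24.8 and 16.2 RPKM. The median of these 4 was -0.51, and it lies 0.04 above the table median.

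Fatty acid oxidation lay around the table shift, with a steeper gap in a few enzymes. Of 14 measured genes of oxidation and lipolysis, 12 were lower in non-lactation, 8 of them with an unadjusted p below 0.05 in the authors' deposited table, and the median log2 ratio was -0.56. Over all transcripts, 91.8% were lower and 38.5% were lower with such a p. CROT, which moves medium-chain acyl groups out of peroxisomes, had 19.9 RPKM in dry-off against 5.36 RPKM in non-lactation, with an unadjusted p of 0.00151 in the authors' deposited table. ACADL, long-chain acyl-CoA dehydrogenase, had 6.36 RPKM and 1.79 RPKM, and HADHA, the mitochondrial trifunctional enzyme, had 71.9 RPKM and 29.1 RPKM. CPT2, which re-forms acyl-CoA inside mitochondria, had 15.5 RPKM and 8.93 RPKM. The lipases of fat stores were the exception, LIPE with 4.34 and 5.44 RPKM and MGLL with 19.3 and 21.8 RPKM.

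**Figure D2:**
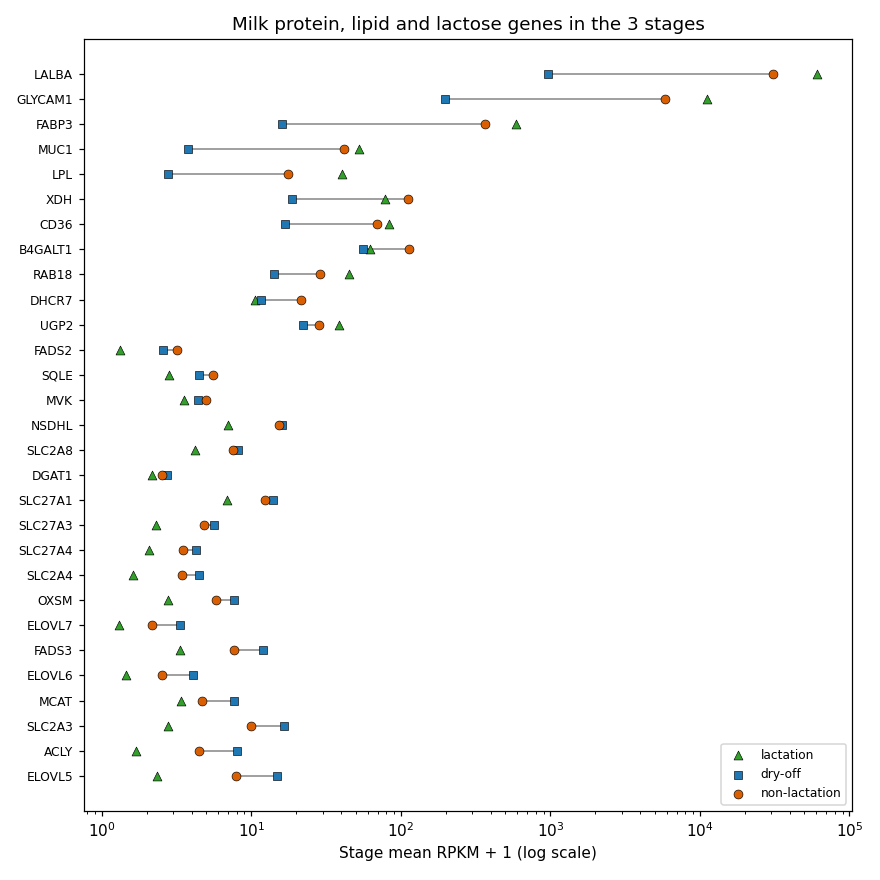
Each row is 1 gene reported from the milk protein, fat globule, fatty acid, triacylglycerol, cholesterol and lactose lists, and the x axis gives the authors' stage mean RPKM plus 1 on a log scale, with triangles for lactation, squares for dry-off and circles for non-lactation. From LALBA at the top down to CD36 the dry-off squares stand well to the left of the other stages, whereas for the elongases and ACLY at the bottom the dry-off square is the highest of the 3.

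Amino acid transport was measured through 2 single genes. SLC1A1, a glutamate and aspartate transporter, had 4.50 RPKM in dry-off, 29.0 RPKM in non-lactation and 14.9 RPKM in lactation, with an unadjusted p of 0.0694 in the authors' deposited table. SLC3A2, the heavy chain of several amino acid transporters, had 104 RPKM in each non-milking stage, for a log2 ratio of 0.00. That value lies 0.55 above the table median.

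Of 18 hormone and growth factor genes, 15 were lower in non-lactation, beside 91.8% of all transcripts. Their median log2 ratio was -0.60, near the table median. Unadjusted p-values below 0.05 in the authors' deposited table were found for 8 lower genes, beside 38.5% of all transcripts, and for 1 higher gene, beside 2.04%. The higher gene was EIF4EBP1, which restrains cap-dependent translation, with 63.1 RPKM in dry-off against 109 RPKM in non-lactation and an unadjusted p of 0.00935 in the authors' deposited table. MTOR, the kinase that inactivates it, had 13.8 RPKM and 7.996 RPKM. IGFBP3, which binds insulin-like growth factors, was the most abundant, with 245 RPKM in dry-off against 111 RPKM in non-lactation. IGF1R, the receptor for those factors, had 17.4 RPKM and 9.98 RPKM, and IGF1 itself had 4.32 RPKM and 1.88 RPKM. FGFR2 had 19.5 RPKM in dry-off against 9.72 RPKM in non-lactation, and FGFR1 had 16.6 and 8.90 RPKM. The receptors of the lactogenic hormones were nearer to equal, PRLR with 2.27 and 2.71 RPKM and GHR with 11.2 and 8.62 RPKM. STAT5A and STAT5B, which carry the prolactin signal, had log2 ratios of -0.27 and -0.47.

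The epithelial markers EPCAM, CDH1 and FOXA1 and the keratins were present in both stages and did not share the direction of the milk genes. An epithelial component that did share it is given in the next paragraph. EPCAM, an epithelial adhesion molecule, had 82.3 RPKM in dry-off against 66.1 RPKM in non-lactation, and CDH1, E-cadherin, had 49.0 RPKM and 33.4 RPKM. FOXA1, a luminal transcription factor, had 18.3 RPKM and 8.06 RPKM, with an unadjusted p of 0.0314 in the authors' deposited table. The 3 luminal markers had a median log2 ratio of -0.54. Keratin transcripts lay lower still. All 12 keratin components were lower in non-lactation, beside 91.8% of all transcripts. Of these, 6 had an unadjusted p below 0.05 in the authors' deposited table, beside 38.1% of all components, and 11 lay below the table median. The 12 components summed to 2391 RPKM in dry-off against 1161 RPKM in non-lactation, and their median log2 ratio was -0.92. An acidic type I keratin had 155 RPKM in dry-off against 50.8 RPKM in non-lactation, with an unadjusted p of 0.000946 in the authors' deposited table, and the most abundant keratin, a basic type II, had 546 RPKM and 252 RPKM.

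Within the epithelial families, E74-like factor 3/5 had components with opposite directions. This description covers ELF5, a regulator of alveolar secretory cells, and its relative ELF3, and the table does not separate them. The first component had 24.8 RPKM in dry-off, 70.4 RPKM in non-lactation and 81.9 RPKM in lactation, with an unadjusted p of 0.0263 in the authors' deposited table. The second had 17.3 RPKM in dry-off, 8.39 RPKM in non-lactation and 5.48 RPKM in lactation. In the first, the dry-off mean was the lowest of the stages, and in the second it was the highest.

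Of 3 markers of myoepithelium and smooth muscle, OXTR, the oxytocin receptor, had 0.892 RPKM in dry-off against 4.44 RPKM in non-lactation, above the 1.18 RPKM of lactation, with an unadjusted p of 0.0472 in the authors' deposited table. ACTA2, smooth muscle actin, had 733 RPKM in dry-off against 489 RPKM in non-lactation, and DES, desmin, had 59.2 RPKM and 42.2 RPKM. The median of the list was -0.48.

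The stroma was mixed, and fibrillar collagens stood out from it. The 8 fibroblast markers had a median log2 ratio of -0.51, with PDGFRA, a receptor for platelet-derived growth factor, at 35.7 RPKM in dry-off against 14.3 RPKM in non-lactation and with an unadjusted p of 0.0232 in the authors' deposited table. VIM, vimentin, had 984 RPKM and 544 RPKM, and DCN, decorin, had 614 RPKM and 424 RPKM. LUM, lumican, had 58.4 RPKM and 62.5 RPKM. Against these, the 3 most abundant components of the fibrillar collagen family (types I, II, III, V and XI) had 262, 185 and 119 RPKM in dry-off and 637, 328 and 318 RPKM in non-lactation. Their unadjusted p-values were 0.164, 0.283 and 0.186 in the authors' deposited table, none of them below 0.05. Of 7 fibrillar components, 5 were higher in non-lactation, and none lay below the table median. Over all 23 collagen components, 10 were higher and 2 lay below the table median, and the median log2 ratio was -0.10.

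Vessel markers lay near the table median, and basement membrane genes were mixed. All 11 endothelial markers were lower in non-lactation, beside 91.8% of all transcripts, with a median log2 ratio of -0.60. Of them, 2 had an unadjusted p below 0.05 in the authors' deposited table, a smaller share than the 38.5% of all transcripts. These were CD34, with 25.7 RPKM in dry-off against 14.02 RPKM in non-lactation, and S1PR1, a sphingosine-1-phosphate receptor, with 26.9 and 14.05 RPKM. ENG, endoglin, the most abundant, had 196 RPKM and 143 RPKM, and VWF, von Willebrand factor, had 85.5 RPKM and 47.9 RPKM. FLT4, the receptor of lymphatic endothelium, had 2.85 RPKM and 1.31 RPKM. Of 13 laminin components, 12 were lower, beside 91.8% of all transcripts, with a median of -0.54. Among the laminins, 7 were lower with an unadjusted p below 0.05 in the authors' deposited table, beside 38.1% of all components. Both components of type IV collagen, the main collagen of basement membranes, had higher means in non-lactation, at 44.0 against 35.2 RPKM and 43.0 against 26.5 RPKM.

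**Figure D3:**
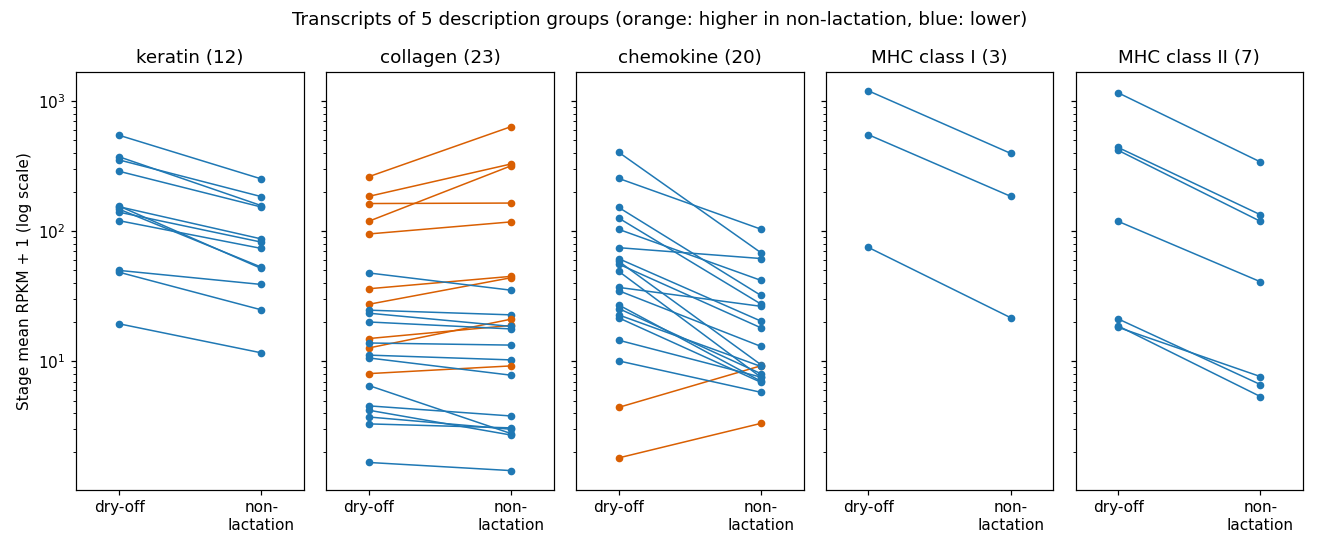
Each line joins the dry-off and non-lactation mean RPKM plus 1 (log scale) of 1 component whose description names a keratin, collagen, chemokine, MHC class I or MHC class II chain, in orange where non-lactation is higher and blue where it is lower. All 12 keratin, 3 class I and 7 class II lines run down, 2 of 20 chemokine lines run up, and 10 of 23 collagen lines run up, among them the 3 of the most abundant fibrillar collagens.

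Markers of macrophages, T and NK cells and B cells lay below the table median as lists. Of 30 genes on the macrophage, T and NK cell, and B cell lists, none had a higher mean in non-lactation, beside 8.19% of all transcripts. On the log2 scale used, 25 were at least 2-fold lower, beside 12.8% of all transcripts. None of the 177 list genes was listed at 0 in either non-milking stage.

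The 11 T and NK cell genes had a median log2 ratio of -1.41, and all lay below the table median. They summed to 441 RPKM in dry-off against 157 RPKM in non-lactation. CD3E, CD3D and CD3G, chains of the T cell receptor complex, had 106, 44.7 and 26.1 RPKM in dry-off and 42.5, 16.4 and 9.24 RPKM in non-lactation. CD2, an adhesion molecule of T and NK cells, had 42.4 RPKM and 11.3 RPKM, with an unadjusted p of 0.0293 in the authors' deposited table. IL2RG, the shared cytokine receptor chain, had 123 RPKM and 40.5 RPKM. GZMB and GZMA, granzymes of cytotoxic cells, had 19.8 and 11.1 RPKM in dry-off and 5.52 and 3.06 RPKM in non-lactation. Unadjusted p was below 0.05 for 3 of the 11 in the authors' deposited table, a smaller share than the 38.5% of all transcripts that were lower with such a p.

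The 6 B cell genes had a median log2 ratio of -1.37, all below the table median, and 4 had an unadjusted p below 0.05 in the authors' deposited table, beside 38.5% of all transcripts. CD79B, a signalling chain of the B cell receptor, had 11.3 RPKM in dry-off against 2.48 RPKM in non-lactation, and CD79A had 16.6 and 6.45 RPKM. CD22 had 9.94 and 2.21 RPKM, and BLNK, the B cell linker, had 8.11 and 3.17 RPKM. Antibody transcripts were among the most abundant in dry-off. The immunoglobulin heavy chain description had 2 components, with 5332 and 4529 RPKM in dry-off and 1820.1 and 1507 RPKM in non-lactation. Transcripts described as immunoglobulin lambda-like polypeptide 1 reached 4664 and 4614 RPKM in dry-off and 1967 and 2096 RPKM in non-lactation. Together the 7 immunoglobulin transcripts were 7.99% of the summed RPKM in dry-off and 3.95% in non-lactation, and their unadjusted p-values ran from 0.0312 to 0.171 in the authors' deposited table.

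The 13 macrophage and monocyte genes had a median log2 ratio of -1.08 and summed to 770 RPKM in dry-off against 319 RPKM in non-lactation. Only 3 of the 13 were lower with an unadjusted p below 0.05 in the authors' deposited table, a smaller share than the 38.5% of all transcripts. C1QA, C1QB and C1QC, the chains of complement C1q, had 288, 117 and 80.9 RPKM in dry-off and 111, 55.0 and 30.6 RPKM in non-lactation. CSF1R, the receptor that macrophages need to survive, had 92.8 RPKM and 32.6 RPKM, with an unadjusted p of 0.0445 in the authors' deposited table. CD14, the co-receptor for bacterial lipopolysaccharide, had 49.2 RPKM and 20.4 RPKM, and FCGR1A, the high-affinity IgG receptor, had 18.9 RPKM and 6.68 RPKM. CD163, a haemoglobin scavenger receptor, had 18.5 RPKM and 5.94 RPKM. Of these 13 genes, TLR2 was the nearest to equal, with 11.8 RPKM and 9.32 RPKM. The mannose receptor family, measured apart from them, had 9 components, of which 8 were lower and 1 higher in non-lactation. Its median log2 ratio was -0.57, with 5 components below the table median, and its most abundant component had 17.5 RPKM in dry-off against 15.9 RPKM in non-lactation. The lysozyme and low-affinity IgG receptor III families had medians of -1.39 and -1.46.

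Neutrophil markers differed in direction. NCF1, a part of the NADPH oxidase, had 14.7 RPKM in dry-off against 5.81 RPKM in non-lactation, while NCF4, another part, had 8.40 RPKM and 12.8 RPKM. CSF3R, the granulocyte colony-stimulating factor receptor, had 2.22 RPKM in dry-off against 4.68 RPKM in non-lactation, and MMP9, gelatinase B, had 6.51 RPKM and 3.37 RPKM. No unadjusted p of the 5 measured genes was below 0.05 in the authors' deposited table, and their median log2 ratio was -0.78.

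All measured antigen presentation and interferon genes had lower means in non-lactation, beside 91.8% of all transcripts. CD74, the class II invariant chain, had 2004 RPKM in dry-off against 589 RPKM in non-lactation, and CIITA, the transactivator of class II genes, had 24.4 RPKM and 8.12 RPKM. Their unadjusted p-values were 0.0261 and 0.0542 in the authors' deposited table, and the median log2 ratio of the pair was -1.62. All 7 components described as MHC class II were lower, with a median of -1.72 and 5 unadjusted p-values below 0.05 in the authors' deposited table, beside 38.1% of all components. The most abundant had 1159 RPKM in dry-off against 340.4 RPKM in non-lactation. The 3 components of MHC class I, which every nucleated cell carries, had a median of -1.60, the most abundant with 1201 RPKM and 396 RPKM.

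The 7 interferon response genes had a median log2 ratio of -1.26, all below the table median, and 6 had an unadjusted p below 0.05 in the authors' deposited table, beside 38.5% of all transcripts. IRF1, a transcription factor induced by interferon-gamma, had 82.0 RPKM in dry-off against 22.9 RPKM in non-lactation. STAT2 and IRF9, parts of the type I interferon complex, had 33.6 and 7.38 RPKM in dry-off and 15.2 and 3.88 RPKM in non-lactation. IRF7 had 25.1 RPKM and 8.75 RPKM, and IRF3 had 4.69 RPKM and 1.38 RPKM. IRF8, a myeloid and B cell factor, had 19.6 and 11.2 RPKM and an unadjusted p of 0.299 in the authors' deposited table.

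Chemokine transcripts, chosen as a group after their values were seen, had a median log2 ratio of -1.51 over 20 components. Of these, 14 were at least 2-fold lower in non-lactation, beside 12.8% of all transcripts. Only 6 of the 20 were lower with an unadjusted p below 0.05 in the authors' deposited table, a smaller share than the 38.1% of all components. C-X-C motif chemokine 9, which draws T cells and is induced by interferon-gamma, had 3 components, with 404, 125 and 57.8 RPKM in dry-off and 67.5, 26.6 and 8.44 RPKM in non-lactation. C-C motif chemokine 19/21, ligands that guide lymphocytes and dendritic cells, had a component with 48.3 RPKM and 6.56 RPKM and an unadjusted p of 0.00304 in the authors' deposited table. C-X-C motif chemokine 12, made by stromal cells, had 254 RPKM and 103 RPKM, with an unadjusted p of 0.000548 in the authors' deposited table. The 2 with a higher mean in non-lactation were C-X-C motif chemokine 5/6, at 8.25 against 3.43 RPKM, and C-C motif chemokine 27/28, at 2.34 against 0.811 RPKM, the latter with an unadjusted p of 0.0183 in the authors' deposited table. All 35 proteasome components, also grouped after their values were seen, were lower, beside 91.8% of all transcripts. Their median was -0.89, and 28 had an unadjusted p below 0.05 in the authors' deposited table, beside 38.1% of all components. The levels of immune cell markers differed alongside the antigen presentation, interferon and chemokine transcripts, from 441 to 157 RPKM for the T and NK list, 770 to 319 RPKM for the macrophage list and 67.6 to 21.6 RPKM for the B cell list. Their part in these differences was not tested.

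**Figure D4:**
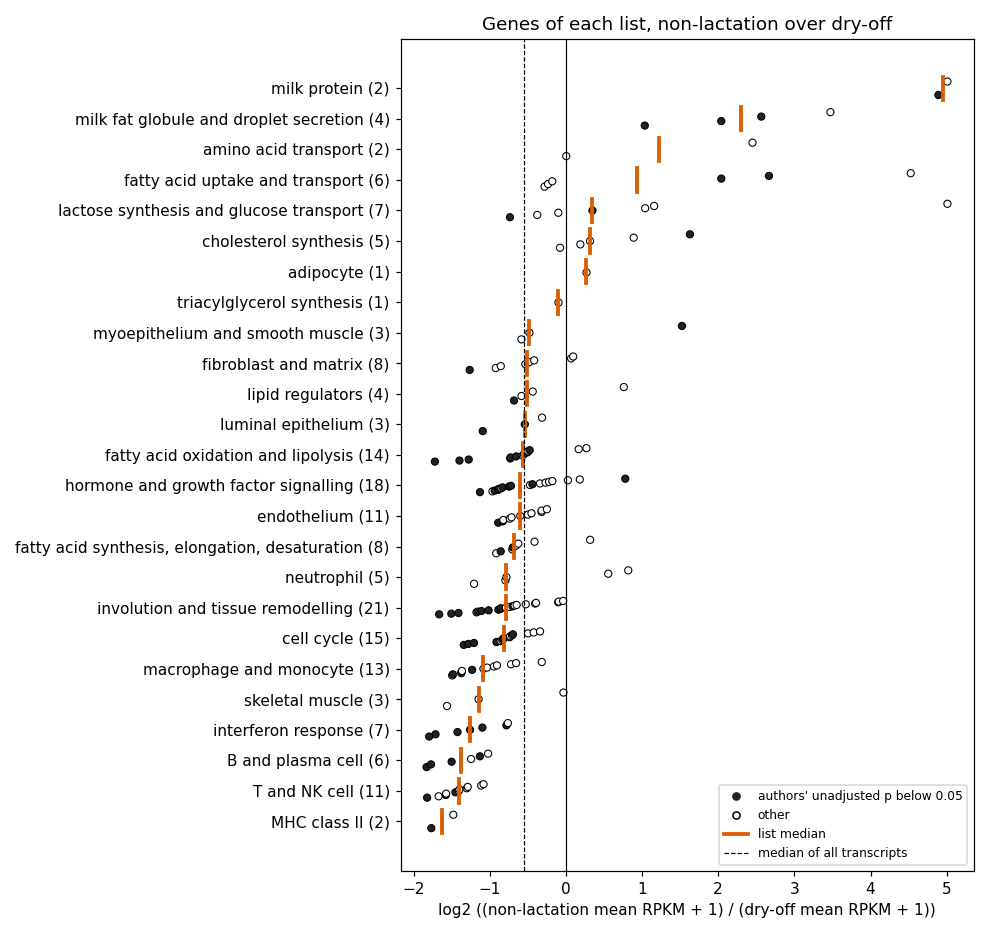
Each row is a gene list with its number of measured genes, and each point is the log2 ratio of 1 gene, non-lactation over dry-off, filled where the authors' unadjusted p was below 0.05. The orange bars are list medians, which run from -1.62 for MHC class II to 4.95 for milk protein, and the dashed line is the median of all transcripts, -0.55.

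All 21 genes of involution and tissue remodelling had a lower mean in non-lactation, with a median log2 ratio of -0.79, and 9 had an unadjusted p below 0.05 in the authors' deposited table. Over all transcripts, 91.8% had a lower mean and 38.5% had such a p as well. PLAT, tissue plasminogen activator, had 60.9 RPKM in dry-off against 22.3 RPKM in non-lactation, with an unadjusted p of 0.000358 in the authors' deposited table, and PLAU, the urokinase form, had 22.03 and 9.21 RPKM. Receptors of the LIF and oncostatin M family, whose signal starts involution in the mouse, were lower together, with IL6ST at 27.3 and 12.1 RPKM, OSMR at 27.7 and 13.2 RPKM and LIFR at 7.26 and 3.57 RPKM. STAT3, which those receptors activate, had 29.99 RPKM and 18.1 RPKM. The descriptions of LIFR, and of CIITA above, were shared by several components, so their levels are uncertain.

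The cell death genes of this list differed in the size of the gap. FAS, a death receptor, had 15.7 RPKM in dry-off against 4.28 RPKM in non-lactation, and BAX, which opens the mitochondrial membrane, had 38.3 RPKM and 12.9 RPKM. BCL2L1, which opposes it, had 42.6 RPKM and 18.6 RPKM. CASP8 had 19.2 RPKM and 9.94 RPKM, whereas CASP9, the caspase of the mitochondrial route, had a log2 ratio of -0.10. Among the proteases, MMP2 was the most abundant, with 352 RPKM and 211 RPKM, followed by CTSB, cathepsin B, with 256 RPKM and 163 RPKM. Their unadjusted p-values were 0.263 and 0.377 in the authors' deposited table.

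Cell cycle genes were lower in all 15 cases, beside 91.8% of all transcripts. Their median log2 ratio was -0.82, and 12 lay below the table median. PCNA, the DNA polymerase clamp, had 87.1 RPKM in dry-off against 35.3 RPKM in non-lactation, with an unadjusted p of 0.00453 in the authors' deposited table. CDK4 had 96.2 RPKM and 54.2 RPKM. MCM6 and MCM3, parts of the replicative helicase, had 15.1 and 19.6 RPKM in dry-off and 6.00 and 9.94 RPKM in non-lactation. PLK1 and BIRC5, which act in mitosis, had 7.46 and 9.15 RPKM in dry-off and 3.78 and 3.01 RPKM in non-lactation. RB1, which holds cells before DNA synthesis, had 12.4 and 7.26 RPKM. Unadjusted p was below 0.05 for 7 of the 15 in the authors' deposited table, beside 38.5% of all transcripts lower with such a p.

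The other tissues on the lists were skeletal muscle, fat and blood. The 3 skeletal muscle genes summed to 14.9 RPKM in dry-off against 5.50 RPKM in non-lactation, with TNNT3, fast troponin T, at 7.28 and 1.81 RPKM, TNNI2 at 6.06 and 2.19 RPKM and DMD at 1.55 and 1.498 RPKM. Their median was -1.15. Descriptions that stand for several genes were more abundant, myosin heavy chain with 372 RPKM in dry-off against 218 RPKM in non-lactation summed over 14 components, and creatine kinase with 52.9 RPKM against 41.6 RPKM, and these include forms made outside skeletal muscle. The only adipocyte gene measured was LIPE, given above with the lipases, at a log2 ratio of 0.27. None of the 5 erythrocyte genes listed had a transcript in the table.

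Ranked by size among transcripts with an unadjusted p below 0.05 in the authors' deposited table and at least 10 RPKM in the higher stage, 67 were higher in non-lactation and 1660 were lower. Of the 12 highest, 8 belonged to butyrophilin, GLYCAM1, glycerol-3-phosphate acyltransferase, lipoprotein lipase and xanthine dehydrogenase. The other 4 named different functions. Ubiquitin carboxyl-terminal hydrolase 3, a deubiquitinating enzyme, had 0.463 RPKM in dry-off against 12.04 RPKM in non-lactation. Complement component 9, the pore-forming last component of complement, had 0.581 RPKM and 12.5 RPKM. The monocarboxylate transporter SLC16 member 1, which carries lactate and ketone bodies, had 1.58 RPKM and 11.7 RPKM, and aquaporin-3, a water and glycerol channel, had 7.07 RPKM and 36.7 RPKM.

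Among the 12 with the largest gap the other way, 4 were chemokine components described above. ABCG member 8, part of a sterol exporter, had 17.7 RPKM in dry-off against 1.37 RPKM in non-lactation, and its log2 ratio of -2.98 was the lowest of the ranked transcripts. CD69, an early marker of activated lymphocytes, had 24.7 RPKM and 3.45 RPKM, and C-type lectin 4 member E, a receptor of myeloid cells, had 10.2 RPKM and 1.499 RPKM. Ubiquitin D, a ubiquitin-like protein induced by interferon-gamma, had 295 RPKM and 62.5 RPKM. Forkhead box protein J1, the factor for motile cilia, had 16.2 RPKM and 2.21 RPKM. The ABC transporter ABCC member 4 had 13.7 and 1.61 RPKM, a deoxyribonuclease-1-like protein had 18.1 and 3.19 RPKM, and a KRAB zinc finger protein had 14.01 and 2.31 RPKM.

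Transcripts with the smallest unadjusted p were not those with the widest gaps, and all 10 were lower in non-lactation. The first was ubiquitin carboxyl-terminal hydrolase 36/42, a deubiquitinating enzyme, with 4.39 RPKM in dry-off against 2.35 RPKM in non-lactation, an unadjusted p of 2.09e-06 and an FDR of 0.0534 in the authors' deposited table. Ras-related protein Rab-27A, which docks secretory vesicles, had 13.0 RPKM and 5.0002 RPKM, and a mitochondrial carrier had 11.8 RPKM and 5.02 RPKM. Transcription factor jun-B had 57.3 RPKM and 36.1 RPKM. Beclin 1, which starts autophagosomes, had 31.9 RPKM and 14.3 RPKM, and p38 MAP kinase had 4.43 RPKM and 2.38 RPKM. The remaining 4 were peptide-N4-(N-acetyl-beta-glucosaminyl)asparagine amidase, bromodomain-containing protein 8, thyroid hormone receptor interactor 10 and F-box protein 34, with log2 ratios of -0.56, -0.41, -1.03 and -0.73. The last 3 of these log2 ratios stand on means of at most 17.8 RPKM in dry-off.

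By abundance, the leading transcripts differed between the stages. In dry-off the 5 highest means belonged to cytochrome c oxidase subunit I, a mitochondrially encoded subunit, at 6539 RPKM and to 4 immunoglobulin transcripts. In non-lactation they belonged to alpha-lactalbumin, the pair of GLYCAM1 transcripts, cytochrome c oxidase subunit I at 5451 RPKM and ubiquitin C at 2343 RPKM. The mitochondrial transcript had a log2 ratio of -0.26 and ubiquitin C had -0.52.

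Among KEGG pathways with at least 10 components in the authors' pathway table, all 186 had a median log2 ratio below 0, from -1.67 to -0.30, beside a median of -0.62 over all 6477 components. Over all components, 38.1% were lower and 1.78% higher with an unadjusted p below 0.05 in the authors' deposited table. The 5 lowest medians belonged to graft-versus-host disease, type I diabetes, allograft rejection, autoimmune thyroid disease and asthma. These share their members. Their 88 entries came from 24 components, of which 10 were MHC chains. Tumor necrosis factor receptor superfamily member 5, which is CD40, the receptor for T cell help, was among them with 24.8 RPKM in dry-off against 5.15 RPKM in non-lactation. In antigen processing and presentation, none of 48 components was higher in non-lactation, beside 8.19% of all transcripts. Of the 48, 27 were lower with an unadjusted p below 0.05 in the authors' deposited table.

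The 5 highest pathway medians belonged to N-glycan biosynthesis, to glycine, serine and threonine metabolism, to glycerolipid metabolism, to GPI-anchor biosynthesis and to propanoate metabolism, at -0.30, -0.30, -0.31, -0.31 and -0.33. In glycerolipid metabolism, 7 of 30 components were higher in non-lactation, 5 of them with an unadjusted p below 0.05 in the authors' deposited table. These include the acyltransferases already described. In the amino acid pathway, phosphoserine aminotransferase, an enzyme of serine synthesis, had 20.3 RPKM in dry-off, 65.2 RPKM in non-lactation and 33.8 RPKM in lactation, with an unadjusted p of 0.0373 in the authors' deposited table. Monoamine oxidase in the same pathway had 13.8 RPKM in dry-off against 6.56 RPKM in non-lactation. In N-glycan biosynthesis, OST4, a subunit of the oligosaccharyltransferase, had 103 RPKM and 69.9 RPKM, and in GPI-anchor biosynthesis, phosphatidylinositol glycan class X had 13.7 RPKM and 8.52 RPKM. In propanoate metabolism, methylmalonyl-CoA mutase had 24.7 RPKM and 15.1 RPKM, and lactate dehydrogenase had 184 RPKM and 128 RPKM.

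**Figure D5:**
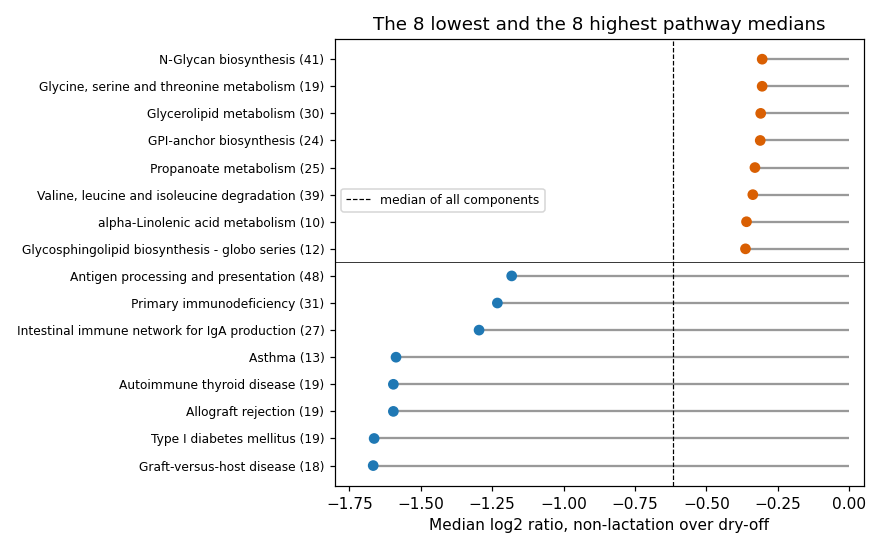
The x axis is the median log2 ratio, non-lactation over dry-off, of the components of each pathway, whose number stands in parentheses, for the 8 lowest and the 8 highest of 186 pathways. Immune pathways lie far to the left of the dashed median of all components, -0.62, and metabolic pathways to the right of it but still below 0.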

How the data were processed

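Poly(A)-selected RNA of goat mammary tissue was sequenced single-end, per the labels. The submitters' processing notes name FastQC, and for the assembler, aligner, read counting and statistical test no name is given in the sources used here. Mean RPKM per stage was deposited by the authors with, per the file headers, a p-value, an FDR and a log2 ratio for each pair of stages. The deposited log2 ratio for this pair was the non-lactation mean over the dry-off mean. The FDR at the smallest p was 25575.5 times that p, more than the 9131 transcripts in the table. The authors also deposited pathway members with the count of transcripts in each, profile members, and the count of correlated transcripts of each transcript.

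From these, log2 ratios with a pseudocount of 1 RPKM, medians and counts were computed with pandas 2.3.3 and numpy 2.4.6 in Python 3.11.15, and scipy 1.17.1 and matplotlib 3.10.9 were used for checks and figures. Functions were tested on simulated data. Samples were grouped by their labels. With stage means alone, no test was run here, and precision from depth is unknown. Genes were identified by matching the authors' protein descriptions to symbols by wording, and 177 of the 426 symbols on 26 lists had a transcript, 173 of them in the RefSeq gene table. A gene was represented by its transcript of highest mean, and families kept 1 transcript per component. Reads of near-identical family members cannot be told apart.

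The members, lists and tests were chosen with earlier results of these data known. Named genes were all measured genes of the milk protein, fat, sterol and lactose lists, and of the other lists up to 5 with the smallest p and 2 with the highest mean. Added to these were the 12 largest differences in each direction, the 10 smallest p-values, the 5 pathways at each end and the 5 most abundant transcripts of each stage. Family transcripts, second values and further list members were added after values were seen, and some genes the rule allows are not reported here. No assembly sequence was used here.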

Additional observations from a re-analysis of the deposited data

How the results depend on the processing

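No paired analysis was possible because only stage means were analysed, and for the same reason no replicate could be left out. Values were taken to move where their sign differed or their log2 value shifted by 1.5-fold or more, and counts where they differed by over 1.5 times. Over the selected table, where it does not control the FDR, Benjamini-Hochberg adjustment gave 1 transcript below 0.05. The count was 1 at an authors' FDR below 0.1 and 3702 at an unadjusted p below 0.05. At least 2-fold as well, 84 higher and 729 lower transcripts had such a p, and at a p below 0.01 40 and 940 had one. With 1 transcript per component, 115 of 6477 were higher with a p below 0.05, which is 1.78% beside 2.04% of all transcripts. With a pseudocount of 0.1, 213 were at least 2-fold higher and 1989 lower. The share of transcripts with an unadjusted p below 0.05 that were higher was 5.02%, but 28.3% around the table median and 33.8% around the ribosomal protein median. Centred on the table median, the median log2 ratio turned positive for triacylglycerol synthesis (0.44), where DGAT1 was the only gene measured. It also did so for lipid regulators (0.040), luminal epithelium (0.0095), myoepithelium (0.070) and fibroblast genes (0.041), and 41 of 177 genes had another sign. With family descriptions added, the median was -0.18 for fatty acid uptake, -0.46 for lactose synthesis and 0.0048 for amino acid transport. The cause was not tested.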

Other observations

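The authors sorted transcripts into profiles over the 3 stages. The largest, with 5258 transcripts, had median means of 1.54 RPKM in lactation, 7.87 RPKM in dry-off against 4.06 RPKM in non-lactation, and no transcript of it was higher in non-lactation than in dry-off. A second, with 2613 transcripts, had medians of 0.859, 5.05 and 3.80 RPKM in the same order. A small profile of 84 transcripts had medians of 16.8, 2.55 and 12.3 RPKM, so its transcripts were lowest in dry-off. Another of 142 transcripts had medians of 1.25, 4.84 and 1.33 RPKM, with non-lactation close to lactation.

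The authors' count of correlated transcripts had a median of 912.5 for the 748 transcripts with a higher mean in non-lactation and of 7610 for the 8383 with a lower mean. The sources used here do not give the rule behind that count, and it was made from the same samples.

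Several transcripts were listed at 0 in a non-milking stage, 8 in dry-off and 12 in non-lactation. L-amino-acid oxidase was listed at 0 in dry-off with 8.43 RPKM in non-lactation, and granzyme H was listed at 0 in non-lactation with 5.42 RPKM in dry-off. Transcripts described as peroxidase and DnaJ homolog subfamily C member 12 were picked after their values were seen. The peroxidase transcript had 5.66 RPKM in dry-off, 224 RPKM in non-lactation and 234 RPKM in lactation, with an unadjusted p of 0.0569 in the authors' deposited table. The most abundant DnaJ homolog transcript had 4.85 RPKM, 82.7 RPKM and 105 RPKM, with an unadjusted p of 0.137 in the authors' deposited table.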
